A study of Mus musculus with 4 samples.

Results

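The germinal centre B cell genes are 9 genes that mark the B cells of germinal centres, namely Mef2b, Nuggc, Gcsam, Bcl6, S1pr2, Fas, Rgs13, Mybl1 and Basp1. They were chosen by symbol among the 31053 genes of the 4 matrices, and each had 1 gene identifier and UMIs in all 4 libraries. Germinal centres are the sites in lymphoid tissue where B cells that have met antigen divide, mutate their antibody genes and compete for help from follicular helper T cells. In the gut they lie in Peyer's patches and in the isolated lymphoid follicles of the colon wall, and they feed the supply of IgA-secreting plasma cells. A germinal centre gene can rise in a sum of B cells because each germinal centre cell makes more of it, or because there are more such cells, and the question here was which of these the counts show after stress.

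The transcripts of single leukocytes were counted in droplets after flow sorting for CD45, the surface marker shared by white blood cells. The tissue was total colon of C57BL/6 mice with a wild-type (WT) genotype. The control group (2 libraries) received the control treatment, and the stress group (2 libraries) was restrained daily for 7 days, a rodent model of psychological stress. The sources used here state neither age nor if a library is 1 animal or a pool. The spread behind each p-value is thus that of these libraries and may be technical. Barcodes with at least 500 unique molecular identifiers (UMIs) and at most 10% mitochondrial UMIs were kept, leaving 2562 cells in control 1, 5443 in control 2, 8333 in stress 1 and 4138 in stress 2.

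B cells were all kept cells with at least 2 UMIs of the antigen receptor genes Cd79a and Cd79b, in all 11986 of 20476 cells (1142, 3141, 5090 and 2613 by library), and held 70569608 of the 102976461 kept UMIs. T cells, set beside them, held at least 2 UMIs of Cd3d, Cd3e and Cd3g and fewer than 2 of the Cd79 pair (4408 cells, 454 to 1602 by library). Pairs of libraries shared 3 to 19 barcodes. Among B cells 639 also held 2 or more Cd3 UMIs, and doublets were kept here and left out as an alternative. The controls differed from each other. B cells under 10% immunoglobulin UMIs numbered 940 in control 1 and 2985 in control 2. In addition 3 fibroblast markers summed to 117 raw CPM (the standard CPM unit, a gene's UMIs scaled by all UMIs of the summed cells) in the B cells of control 1, 0.103 in control 2 and at most 16.0 under stress. Values without 1 of the controls are given beside the main ones for several comparisons.

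Germinal centre cells were found without the 9 genes, which were kept out of the genes used for clustering. Of the 15 clusters of B cells, clusters 7 (with Lipc and Scimp among its leading genes) and 9 (led by histone genes and Stmn1) were called germinal centre-like, 813 cells in all. Neil1, Eaf2, Rassf6 and Plxnb2, markers of these cells that are not among the 9, were detected there in all 4 libraries. Rassf6 stood at 49.1 raw CPM in cluster 7 and 66.5 in cluster 9, against 0.200 in cluster 0, the largest cluster of the other B cells, and 1.26 in cluster 1, the largest of the antibody-secreting-like cells. Plxnb2 stood at 46.3 and 70.7 raw CPM in clusters 7 and 9, against 1.80 in cluster 0 and 1.75 in cluster 1. Neil1, a DNA glycosylase, stood at 199 and 192 raw CPM in clusters 7 and 9, against 36.3 in cluster 0 and 35.4 in cluster 1. Eaf2 did not set germinal centre-like apart from antibody-secreting-like cells, at 221 and 210.3 raw CPM in clusters 7 and 9, 15.02 in cluster 0 and 614 in cluster 1. In germinal centre-like cells 7 T cell markers summed to 2.13 to 68.7 raw CPM, against 4142 to 5284 in T cells, and 4 epithelial markers to at most 2.73. Clusters 1 and 12, with at least 1000 raw CPM of Xbp1, a transcription factor of antibody secretion, were called antibody-secreting-like (1813 cells). Clusters 8, 10, 11 and 14 held T cell, myeloid or fibroblast genes and were called mixed (861 cells), and the remaining 8499 were the other B cells. The limits that define these compartments were set after seeing the data. Cluster 13 (45 cells, median 1390 UMIs) stayed with the other B cells.

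The 9 genes were found together in the cells of these clusters. The median germinal centre-like cell held a UMI of 5 of the 9 genes, and 720 of the 813 (88.6%) held 3 or more. Of the other B cells 7568 of 8499 held none, and 13 (0.153%) held 3 or more, beside 15 of 4408 T cells (0.340%). T cells also had counts of Bcl6, Fas and S1pr2, given below, so their rate is not a measure of free RNA and mixed droplets. The germinal centre-like cells were deeper, with medians of 5049 to 8429 UMIs by library against 1589 to 3238 in the other B cells and 2286 to 4674 in T cells. Cells of at least 1000 UMIs were also thinned to 1000 UMIs, and cells below that were left out. Mef2b then still had a UMI in 21.1 to 33.8% of germinal centre-like cells and in 0.343 to 1.03% of other B cells.

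**Figure D1:**
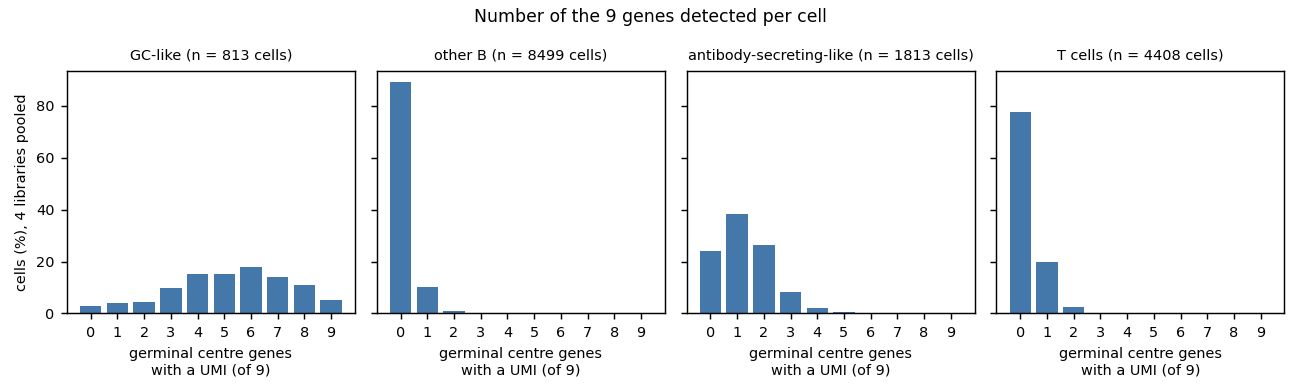
Share of cells (%, vertical axis) with a UMI of 0 to 9 of the germinal centre genes (horizontal axis) in each class, 4 libraries pooled. Germinal centre-like cells centre on 5 genes, while most other B cells and T cells hold none and antibody-secreting-like cells centre on 1.

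The promoters of the genes that are high in these cells were compared in RefSeq's windows of 250 bases before to 50 after the start of transcription (build GRCm38.p6), which 7 of the 9 genes had. Windows of Nuggc and Mybl1 were not used here. The 4 shown are the transcription factor Mef2b, the master repressor Bcl6 at its downstream start, and the 2 windows at the ends of the range of base composition, Rgs13 and Basp1. Capitals mark motif matches.
Mef2b: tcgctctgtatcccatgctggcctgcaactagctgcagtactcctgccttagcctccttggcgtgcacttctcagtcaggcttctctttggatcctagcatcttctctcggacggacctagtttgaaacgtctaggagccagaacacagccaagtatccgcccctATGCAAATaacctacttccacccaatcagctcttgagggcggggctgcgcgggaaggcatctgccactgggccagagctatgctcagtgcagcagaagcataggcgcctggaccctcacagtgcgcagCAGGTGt
Bcl6: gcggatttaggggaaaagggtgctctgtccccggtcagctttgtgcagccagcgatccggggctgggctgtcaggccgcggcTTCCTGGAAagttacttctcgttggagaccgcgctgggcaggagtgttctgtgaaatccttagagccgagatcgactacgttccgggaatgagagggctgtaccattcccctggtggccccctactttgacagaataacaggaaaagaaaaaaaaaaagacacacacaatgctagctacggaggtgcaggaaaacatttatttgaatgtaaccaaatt
Rgs13: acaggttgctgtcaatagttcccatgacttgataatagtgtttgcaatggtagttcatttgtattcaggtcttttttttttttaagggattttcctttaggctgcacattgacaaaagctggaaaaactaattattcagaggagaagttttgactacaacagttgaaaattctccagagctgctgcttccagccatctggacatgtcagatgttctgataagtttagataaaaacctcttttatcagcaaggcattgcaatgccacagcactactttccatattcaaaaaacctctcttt
Basp1: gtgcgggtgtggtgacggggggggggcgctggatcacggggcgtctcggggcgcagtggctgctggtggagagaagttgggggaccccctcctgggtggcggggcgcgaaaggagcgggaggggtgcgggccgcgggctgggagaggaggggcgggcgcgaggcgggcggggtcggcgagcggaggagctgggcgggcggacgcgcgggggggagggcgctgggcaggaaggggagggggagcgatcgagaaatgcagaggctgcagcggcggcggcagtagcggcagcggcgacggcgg
The Mef2b window (chr8:70152511-70152810, plus strand) holds the octamer ATGCAAAT at bases 166 to 173 and the E-box CAGGTG at bases 294 to 299. The octamer is the motif of the factors Oct1 and Oct2 and their partner OCA-B. The Bcl6 window (chr16:23981234-23981533, minus strand) holds TTCCTGGAA at bases 83 to 91, a match to TTCCTNGAA, the motif that Bcl6 itself binds. On either strand, the octamer occurs in 1.75% of all 32544 such windows, TTCCTNGAA in 1.598% and the E-box in 20.3%, which also occurs in the window of S1pr2. The MEF2 motif, found in 3.16% of windows, matched none of the 8 windows of these genes. The Rgs13 window (chr1:144177323-144177622, minus strand) is 36.7% G and C with 0 CpG pairs, and 5.27% of windows are lower still. The Basp1 window (chr15:25413715-25414014, minus strand) is 78% G and C with 38 CpG pairs (98.0% of windows are lower). A match is a description of letters, and no binding was measured.

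The level of each gene is given as raw CPM of the class, and genes are not compared with each other because transcripts differ in length and capture. Among the transcription factors, Bcl6 (ENSMUSG00000022508, chromosome 16, 23965052 to 23988852) represses the genes of rest and of plasma cells and holds B cells in the germinal centre. It stood at 77.9, 51.0, 62.5 and 92.0 raw CPM in the germinal centre-like cells of controls 1 and 2 and stress 1 and 2. It stood at 20.2 to 26.4 in the other B cells, at 21.7 to 30.8 in T cells and at no more than 0.761 in antibody-secreting-like cells. The germinal centre-like cells were 2.25 to 3.85 times as high as the other B cells, the smallest such ratio among the genes with over 3 UMIs in the other B cells of a library, and the other B cells and T cells overlapped. Mef2b (ENSMUSG00000079033, chromosome 8, 70139711 to 70167488), which in human B cells activates BCL6, stood at 339, 262, 291 and 317 raw CPM in germinal centre-like cells, 23.8 to 79.0 times the other B cells (3.31 to 13.3). Its annotated span overlaps Borcs8 on the same strand, so reads from the overlap could be counted for either. Mybl1 (ENSMUSG00000025912, chromosome 1, 9667415 to 9700209), a Myb family factor, stood at 141, 142, 135 and 170 raw CPM, with 1, 4, 7 and 7 UMIs in the other B cells of the 4 libraries.

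A second set of genes acts in signalling and position. S1pr2 (ENSMUSG00000043895, chromosome 9, 20962361 to 20976781), the receptor that confines B cells to the follicle centre, stood at 122, 173, 143 and 158 raw CPM in germinal centre-like cells. It stood at 0.346 to 1.04 in the other B cells, below its level in T cells (3.13 to 9.96). Rgs13 (ENSMUSG00000051079, chromosome 1, 144138654 to 144177372), which dampens chemokine receptor signals through G proteins, stood at 330, 285, 366 and 267 there. Gcsam (ENSMUSG00000022659, chromosome 16, 45610380 to 45622867), an adaptor that limits B cell movement, stood at 101, 101, 98.4 and 149. Germinal centre-like cells held 88.2 to 98.7% of all B cell UMIs of Rgs13, 90.1 to 94.7% of Mybl1, 85.5 to 92.3% of Gcsam, 84.5 to 85.6% of Mef2b and 77.3 to 83.6% of S1pr2 by library.

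The remaining genes were also present outside germinal centre-like cells. Fas (ENSMUSG00000024778, chromosome 19, 34290666 to 34327772), the death receptor, stood at 183, 119, 121 and 126 raw CPM in germinal centre-like cells. It stood at 24.8 to 48.8 in T cells, 16.1 to 23.5 in antibody-secreting-like cells and 3.46 to 11.7 in the other B cells. These 4 ranges did not overlap. Nuggc (ENSMUSG00000061356, chromosome 14, 65598546 to 65648531), a nuclear GTPase of germinal centre B cells that guards against DNA damage, stood at 156, 151, 190 and 172 in germinal centre-like cells. It stood at 22.9 to 36.1 in antibody-secreting-like cells, with 0, 1, 3 and 4 UMIs in the other B cells of the 4 libraries. Basp1 (ENSMUSG00000045763, chromosome 15, 25363277 to 25413764), a membrane-associated protein best known from nerve growth cones and as a partner of WT1, stood at 907, 713, 909 and 830 in germinal centre-like cells. In antibody-secreting-like cells it stood at 237 and 256 in controls and 75.2 and 70.0 under stress. Germinal centre-like cells thus held 43.1 to 52.0% of B cell UMIs of Nuggc, 37.2 to 44.0% of Fas, 29.7 to 63.5% of Basp1 and 16.4 to 51.1% of Bcl6.

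**Figure D2:**
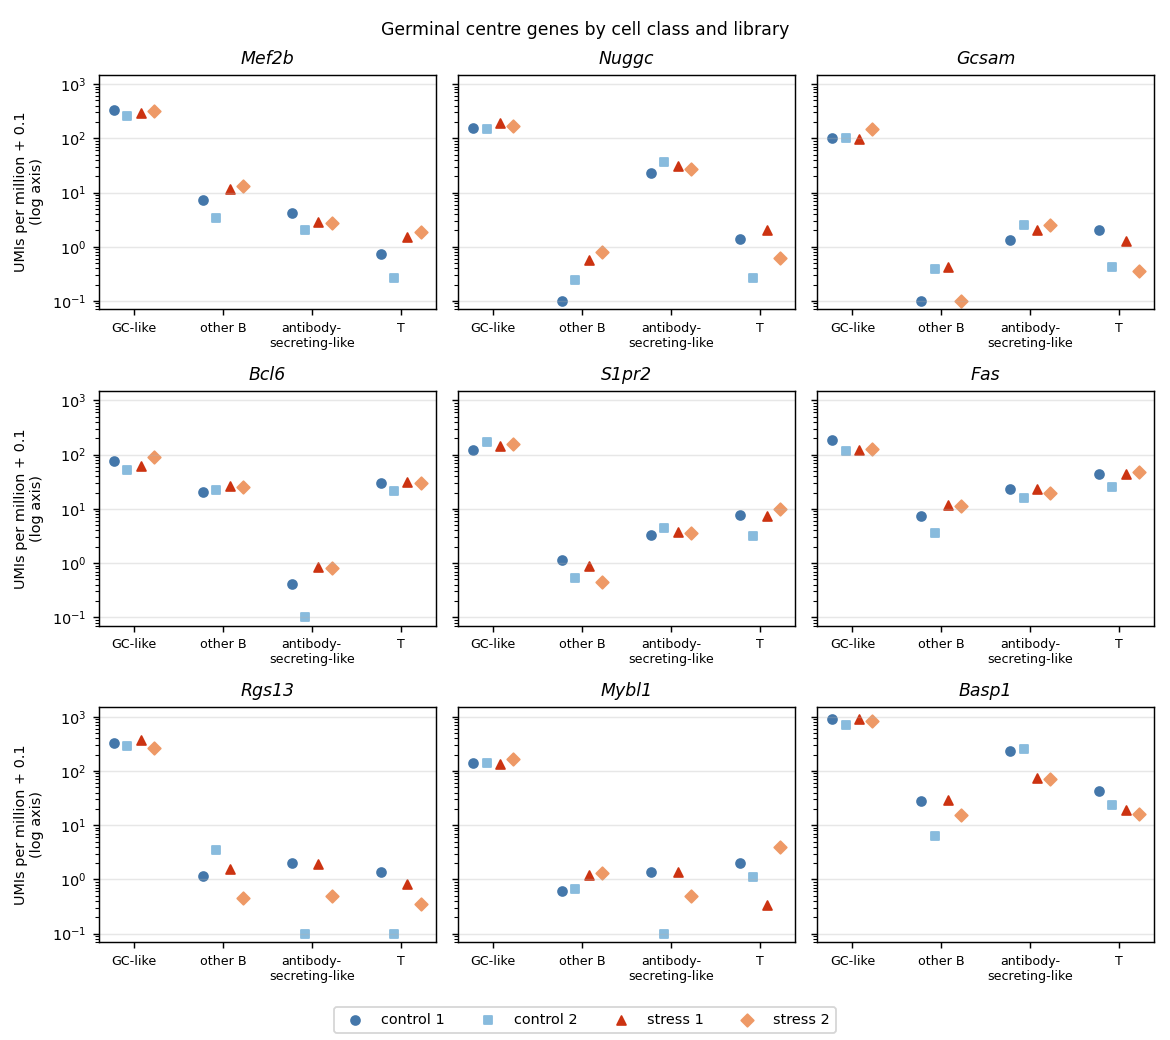
Raw CPM plus 0.1 (log axis) of each gene in the 4 classes of cells (horizontal axis), 1 point per library. All 9 genes are highest in germinal centre-like cells, where control and stress points overlap for all but Nuggc. Both stress points lie above both controls for 5 genes in the other B cells, 1 in antibody-secreting-like cells and 2 in T cells. On normalised CPM 20.7, 21.6 and 19.1% of all genes tested do so. Both lie below for Basp1 in antibody-secreting-like cells and in T cells (21 and 17.4% of all genes tested).

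Within germinal centre-like cells the dividing cluster 9 and cluster 7 differed little in these genes. Mef2b was 335.5 ± 53.1 raw CPM in cluster 9 and 282 ± 30.1 in cluster 7 (SD, n = 4) and was higher in cluster 9 in 4 of 4 libraries. The other 8 genes were higher in cluster 9 in 1 to 3 of 4 libraries, with Basp1 at 850.0 ± 75.1 and 835 ± 106 and Rgs13 at 290.1 ± 56.3 and 324 ± 42.5. Cluster 9 took 26.0% ± 1.84 of germinal centre-like cells in the control group and 25.8% ± 3.72 in the stress group (SD, n = 2, two-sided exact permutation p = 1).

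The share of germinal centre-like cells was higher in both stress libraries than in both controls. They made up 66 of 1142 B cells in control 1 (5.78%, 95% Clopper-Pearson interval 4.50 to 7.29), and 77 of 3141 in control 2 (2.45%, 1.94 to 3.05). They made up 446 of 5090 in stress 1 (8.76%, 7.9995 to 9.57) and 224 of 2613 in stress 2 (8.57%, 7.53 to 9.71). The stress libraries lay close together and the controls far apart, at 8.67% ± 0.134 and 4.12% ± 2.35 (SD, n = 2), a ratio of 2.11. The two-sided exact permutation p was 0.333, the smallest that 2 against 2 libraries can give. Among B cells under 10% immunoglobulin UMIs the shares were 4.80% ± 3.14 and 11.5% ± 0.489, and of all kept cells 2.00% ± 0.821 and 5.38% ± 0.0432. A rule per cell in place of clusters was at least 2 of the 9 genes with a UMI after thinning to 1000 UMIs. It gave 2.90% ± 1.86 and 5.35% ± 0.626 of B cells with at least 1000 UMIs (1117, 3030, 4679 and 2568 by library). In T cells of that depth it gave 0.338% ± 0.157 and 0.430% ± 0.143. The rule reads the 9 genes themselves, so it cannot separate share from level. Antibody-secreting-like cells can also meet it, since 11.2% of them held 3 or more of the genes before thinning. The intervals cover counting error only, and cells outside the sort gate were never counted. Antibody-secreting-like cells took 9.49% ± 8.25 and 20.7% ± 3.91 of the same B cells (exact permutation p = 0.333).

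**Figure D3:**
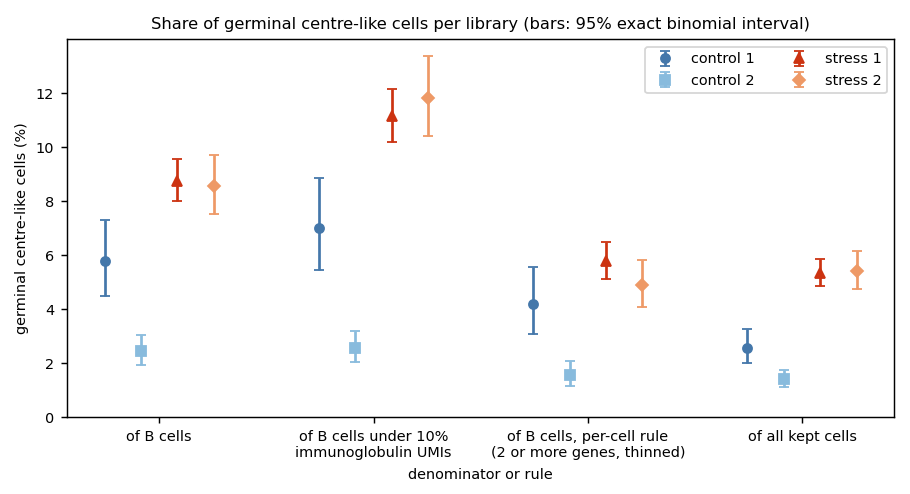
Germinal centre-like cells as a percentage (vertical axis) of 3 denominators (horizontal axis), 1 point per library with its 95% exact binomial interval. Beside them are the B cells of any cluster that met the rule per cell. Stress libraries lie above both controls in each, and control 2 (2.45% of B cells) lies far below control 1 (5.78%).

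Summed over all B cells, 8 of the 9 genes had a positive log2 change with stress and none passed the test. Levels here are normalised CPM (CPM scaled by TMM, a method that sets libraries to a common effective size). Gcsam stood at 8.78 and 5.55 CPM in controls and 12.5 and 15.3 under stress (log2 1.00, SE 0.27). Nuggc stood at 26.2 and 14.5 against 39.7 and 36.3 (0.93, SE 0.29). S1pr2 stood at 12.7 and 10.3 against 19.3 and 17.9 (0.71, SE 0.18). The edgeR adjusted p was 0.548 for each of these genes. Basp1 was the exception, at 245 and 88.7 CPM against 156 and 133 (log2 -0.20). The median log2 change over the 9 genes was 0.64, and over all genes tested it was -0.00, with 49.9% of them positive. The stress libraries lay above both controls for 6 of the 9 genes, against 21.9% of all genes. On raw CPM they did so for 5 of the 9, with Bcl6 overlapping at 15.6 ± 4.48 and 15.2 ± 1.02 (SD, n = 2). The share of all genes on raw CPM was not computed. In this comparison edgeR called 0 of 11733 genes (percent called 0), 4 of the 9 genes and 1025 of all genes were at an unadjusted p below 0.05, while DESeq2 called 38 genes and none of the 9. Without control 1 the log2 change was 0.70 to 1.39 for the 7 genes other than Bcl6 and Rgs13. Without control 2 the log2 changes ran from -0.76 for Basp1 to 0.66 for Gcsam.

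Immunoglobulin transcripts of antibody-secreting cells took much of these sums, since antibody-secreting-like clusters held 49.6, 17.5, 47.7 and 56.4% of B cell UMIs. With cells of 10% or more immunoglobulin UMIs left out, the stress libraries lay above both controls for all 9 genes, against 20.3% of all genes tested. S1pr2 stood at 23.4 and 15.7 CPM in controls and 39.4 and 40.8 under stress (log2 1.10, SE 0.21, edgeR adjusted p = 0.145). Gcsam stood at 18.7 and 8.92 against 26.5 and 37.1 (1.33, SE 0.35, edgeR adjusted p = 0.281). Mybl1 stood at 26.5 and 13.3 against 37.0 and 43.2 (1.11, SE 0.30). Control 2 was the lowest library for all of these genes. Mef2b stood at 68.1 and 25.8 against 83.9 and 87.5 (0.95, SE 0.49). In this fit edgeR called 1 of 10976 genes (0.00911%) and none of the 9. DESeq2 called 58 (0.528%), with S1pr2 (1.08, adjusted p = 0.0358) and Nuggc (1.22, adjusted p = 0.0435) among them. Without control 1 the log2 changes of the 9 ran from 0.56 for Bcl6 to 1.84 for Nuggc. Without control 2 that of S1pr2 was 0.78. With no filter on low counts 7 of the 9 passed, all but Bcl6 and Basp1 (449 of 17179 genes called).

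Within germinal centre-like cells the level of these genes did not differ beyond the spread between libraries. Mef2b stood at 347 and 265 CPM in controls and 284 and 325 under stress, 306 ± 58.0 and 304 ± 29.1 (SD, n = 2, log2 0.00, 95% interval -0.34 to 0.35). Basp1 stood at 825 ± 146 and 869 ± 25.5 (0.08, -0.25 to 0.40), Rgs13 at 313 ± 35.7 and 315 ± 59.4 (0.02, -0.33 to 0.37) and S1pr2 at 149.8 ± 35.1 and 150.7 ± 16.0 (-0.02, -0.40 to 0.37). The ends of the 9 log2 changes were Fas, at 154 ± 47.5 and 124 ± 7.39 CPM (-0.28, -0.69 to 0.12), and Bcl6, at 65.6 ± 19.9 and 77.7 ± 23.6 (0.28, -0.27 to 0.83). Nuggc, at 159 and 153 CPM against 185 and 176, was the 1 gene of 9 with both stress libraries above both controls, against 17.7% of all genes (log2 0.21, -0.14 to 0.57). None of the 9 had both below, against 16.7% of all genes. In this fit edgeR called 0 of 8106 genes (percent called 0), DESeq2 also 0, and 354 genes but none of the 9 were under an unadjusted p of 0.05. The adjusted p of the 9 was 0.998 to 0.999, and leaving out 1 library moved log2 changes to between -0.60 (Fas without control 2) and 0.58 (Gcsam without stress 1) with none past the threshold. The intervals come from the spread between library sums, each of 66 to 446 cells.

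**Figure D4:**
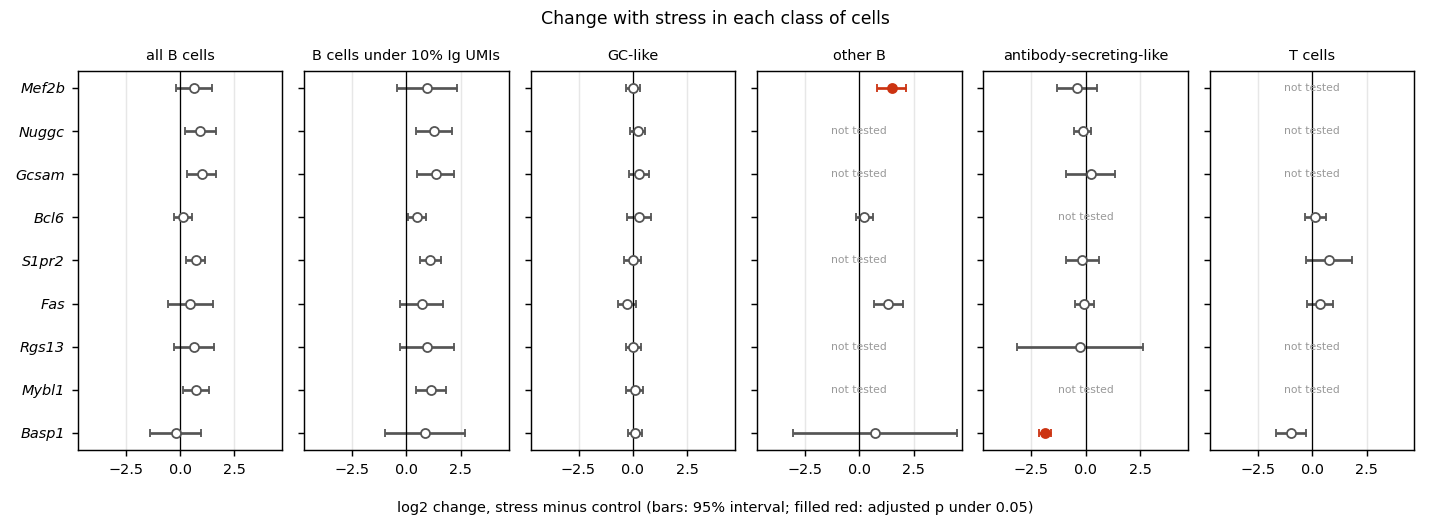
Log2 change, stress minus control, with its 95% interval (horizontal axis) of each gene (rows) in 6 sets of cells. Changes in the germinal centre-like panel centre on 0 with Mef2b at 0.00, those in B cells under 10% immunoglobulin UMIs are all positive, and the filled red points are Mef2b in other B cells (1.49) and Basp1 in antibody-secreting-like cells (-1.89).

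The change of each gene in the sum of B cells was then divided exactly into a part from the shares of UMIs that the compartments took and a part from the level in each compartment. The parts were averaged over the 4 pairs of 1 control and 1 stress library. The division is an identity and has no test, and its values are raw CPM without TMM scaling. In all B cells Mef2b went up by 9.80, of which 6.78 came from shares, 0.07 from its level in germinal centre-like cells and 2.55 from its level in the other B cells. For Rgs13 8.58 of 9.69 came from shares and 1.01 from the level in germinal centre-like cells, and for S1pr2 4.79 and 0.28 of 5.52. The same parts were for Mybl1 3.82 and 0.78 of 4.96, for Gcsam 3.31 and 1.67 of 5.61, and for Nuggc 10.5 and 2.27 of 15.1, with 4.67 of the 10.5 from the share of germinal centre-like cells and the rest from other compartments. Germinal centre-like cells took 7.40 and 6.04% of B cell UMIs in controls and 10.9 and 8.06% under stress. This share is common to all genes, so its part was positive for any gene present in these cells. For all 9 genes the part from the germinal centre share was larger than the size of the part from the germinal centre level. Fas had opposing parts, 5.61 from shares, -2.35 from germinal centre-like cells and 2.18 from the other B cells, with a sum of 6.18. Bcl6 had a negative part from all shares together (-3.30), with a positive part from the germinal centre share (1.80), and its sum was -0.39. Several of these values turned on 1 library. Without stress 1 the sum for Rgs13 was -0.80, with 3.44 from shares and -3.09 from the level in germinal centre-like cells, and over the 4 pairs its sum ranged from -3.91 to 23.3. The sum for Fas was -1.24 without control 2, with 3.77 from shares and -5.04 from germinal centre-like cells. That for Bcl6 was 2.78 without control 2, and that for Basp1, -29.7 with all libraries, was 29.3 without control 1. The part from the level in germinal centre-like cells took both signs over the 4 pairs for every gene but Nuggc. The level of Bcl6 in antibody-secreting-like cells, which took more of the UMIs under stress in the mean, was near 0.

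Without cells of 10% or more immunoglobulin UMIs the shares carried 74.1 to 95.3% of the change of every gene but Bcl6 (44.5%). For Fas the levels moved in opposite directions, by -6.18 in germinal centre-like cells and 7.05 in the other compartments, of a change of 16.6. The split of these cells was not repeated without single libraries. Of a change of 42.9 raw CPM in Mef2b, 36.9 came from shares and -0.30 from the level in germinal centre-like cells. For Rgs13 39.8 of 41.7, for S1pr2 19.7 of 22.5, for Mybl1 18.8 of 22.2 and for Basp1 105 of 117 came from shares. For Bcl6 5.54 of 12.4 did. Over the 4 pairs the share part of Mef2b ranged from 22.5 to 50.3 raw CPM. In all B cells without stress 1 the germinal centre share part exceeded the level part for 5 of the 9 genes, with Gcsam, Bcl6, Fas and Mybl1 not among them, and without control 2 for 8, all but Fas.

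**Figure D5:**
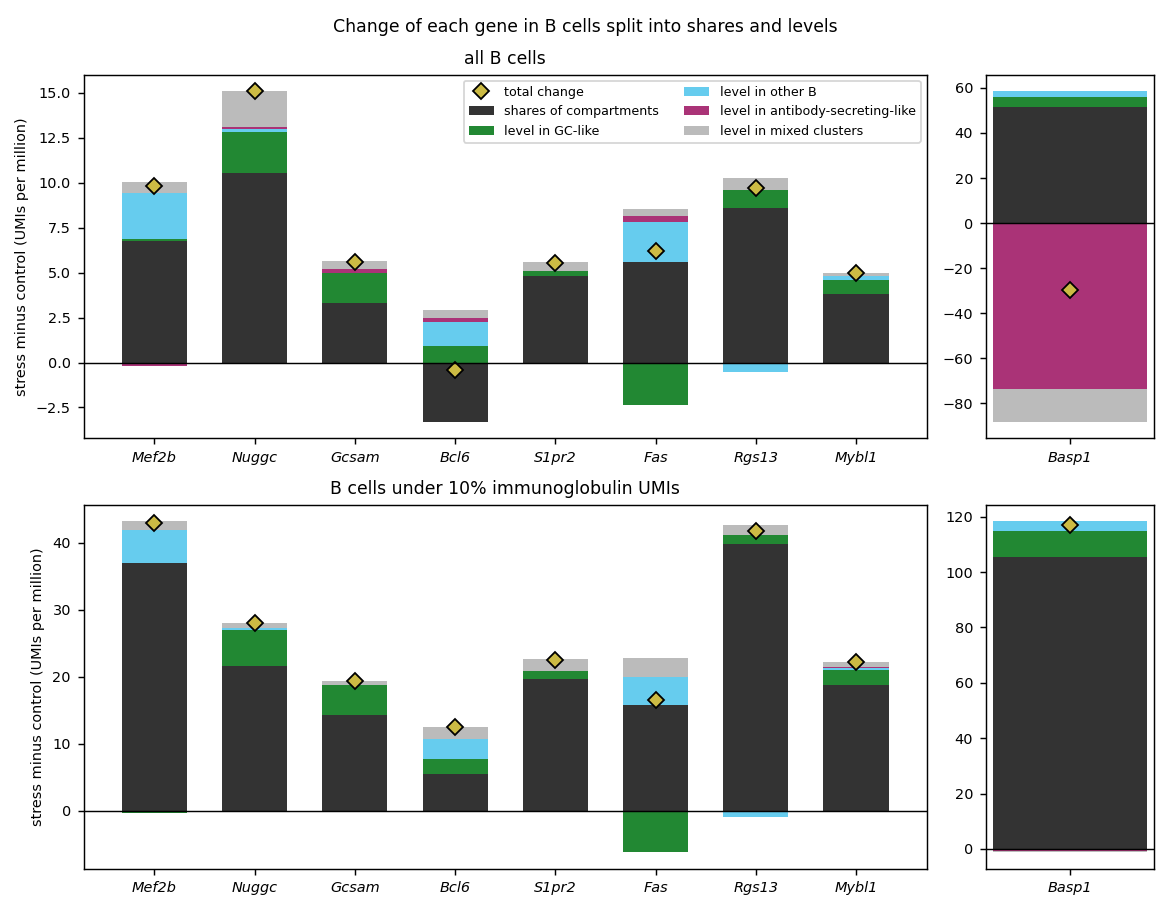
Change in raw CPM, stress minus control (vertical axis), of each gene in all B cells (upper) and in B cells under 10% immunoglobulin UMIs (lower), stacked by the part from shares of compartments and the parts from the level in each compartment. Diamonds mark the sum. In the upper panels the part from shares is positive and exceeds the size of the level parts added together for 7 of the 9 genes. That count is 3 without stress 1 and 4 without control 2. For Basp1 (own axis) the level in antibody-secreting-like cells pulls the sum to -29.7.

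Mef2b rose in the other B cells. It stood at 7.44 and 3.29 CPM in controls (14 and 23 UMIs) and 11.3 and 13.4 under stress (72 and 77 UMIs), a log2 change of 1.49 (SE 0.33, edgeR adjusted p = 0.0363). Fas moved from 7.44 and 3.44 CPM to 11.5 and 11.1 (1.33, SE 0.32, adjusted p = 0.0648), and Bcl6 from 20.7 and 22.5 to 25.99 and 25.03 (0.22). In this fit edgeR called 47 of 9809 genes (0.479%), and of the 4 germinal centre genes that passed the filter on low counts 1 was called, Mef2b. Gcsam, Rgs13, Mybl1, Nuggc and S1pr2, with 0 to 24 UMIs per library in these cells, did not pass it. The change in germinal centre-like cells minus that in the other B cells was -1.41 (SE 0.28, edgeR adjusted p = 0.000435) for Mef2b and -1.48 (SE 0.30, adjusted p = 0.000533) for Fas. This test was added after seeing the data and called 93 of 9590 genes (0.97%). Outside B cells Mef2b was also higher under stress, at 0.400 ± 0.333 and 1.62 ± 0.244 raw CPM in T cells (SD, n = 2). In the kept cells that were neither B nor T cells Mef2b stood at 2.14 ± 0.544 and 4.72 ± 0.358, and Fas at 19.5 ± 5.59 and 39.2 ± 1.76. Both stress libraries lay above both controls in each, as for 19.1 and 21.6% of all genes on normalised CPM. The groups overlapped for Fas in T cells.

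These results rested on control 2. Without it the change of Mef2b in the other B cells was 0.72 (adjusted p = 0.685) and the differences from germinal centre-like cells were -0.91 (adjusted p = 0.570) and -1.20 (adjusted p = 0.358). Mef2b also did not pass without stress 2 (1.35, adjusted p = 0.127) or with the replicate number as a block (1.45, adjusted p = 0.238), and DESeq2 gave it no adjusted p (log2 1.35). Fas passed in 3 of 10 alternatives, with no filter on low counts (1.31, adjusted p = 0.00536), without control 1 (1.71, adjusted p = 0.0245) and at resolution 2.0 (1.37, adjusted p = 0.0454). The mix of clusters differed, with clusters 0 and 3 holding 33.9 and 17.6% of the other B cells of control 1 and 50.4 and 23.5% of control 2, cluster 2 32.1% of stress 1 and cluster 5 44.4% of stress 2. Both stress libraries lay above both controls for Mef2b in 4 of the 7 clusters (3, 4, 5 and 6), at 0 to 25 UMIs per library, and for Fas in 2 (4 and 6). Cluster 6, which is led by Siglech and Fcrl5, held 5 of the 14 Fas UMIs of control 1, 9 of the 24 of control 2, 43 of the 73 of stress 1 and 31 of the 64 of stress 2. Siglech is also a marker of plasmacytoid dendritic cells, and it had no UMI in the other B cells of control 1, cluster 6 included. In the other B cells 5 genes of dividing cells summed to 11.5 and 12.2 raw CPM in controls, against 29.99 and 19.1 under stress. A further 8, of antibody-secreting cells, summed to 732 and 613 against 1556 and 2051. Their part in the result, and that of the cluster mix, was not tested. With cluster 13 or doublets left out Mef2b passed.

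Basp1 fell in antibody-secreting-like cells. It stood at 259 and 255 CPM in controls (754 and 525 UMIs) and 70.0 and 69.3 under stress (889 and 1090 UMIs), a log2 change of -1.89 (SE 0.12, 95% interval -2.15 to -1.62, edgeR adjusted p = 2.98e-05). The means were 257 ± 2.83 and 69.7 ± 0.530 CPM (SD, n = 2), and the groups did not overlap, as for 21% of all genes tested that were lower in both stress libraries. This fit was added after seeing the data and called 76 of 9286 genes (0.818%), and its 10 alternatives gave Basp1 changes of -1.89 to -1.85, all past the threshold. With cells of at least 1000 UMIs thinned to 1000 UMIs, 14.9 and 16.5% of control cells and 6.92 and 6.87% of stress cells held a Basp1 UMI. The median depths of all antibody-secreting-like cells before thinning were 18635, 17310, 12223 and 23045 UMIs. In each of the 4 antibody-secreting-like clusters of the finer clustering at resolution 2.0 both stress libraries were lower. Basp1 stood in cluster 16 at 331 and 345 raw CPM against 59.3 and 59.3, and in cluster 7 at 143 and 189 against 84.8 and 76.9. In cluster 4 it stood at 161 and 246 against 71.8 and 70.7. In cluster 24 control 2 had 1 cell. The mix of these clusters differed by library, with 78, 22, 83 and 64 cells in cluster 16 (controls 1 and 2, stress 1 and 2) and 73, 71, 467 and 341 in cluster 4. The part of this mix in the change of Basp1 was not tested. Nuggc stood in antibody-secreting-like cells as a whole at 30.6 ± 7.69 and 27.5 ± 1.37 CPM (log2 -0.13), and Fas at 20.9 ± 6.89 and 20.5 ± 1.51 (-0.06). None of the 7 germinal centre genes tested there had both stress libraries above both controls, against 21.6% of all genes. The change of Basp1 in antibody-secreting-like minus germinal centre-like cells was -1.97 (SE 0.13, edgeR adjusted p = 2.04e-10), with 28 of 9466 genes called in that test (0.296%).

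In T cells 4 of the 9 genes passed the filter on low counts and none passed the test. Bcl6, which follicular helper T cells also use, stood at 29.8 and 23.98 CPM in controls and 30.04 and 28.2 under stress (log2 0.15). Fas stood at 44.3 and 27.4 against 42.0 and 46.1 (0.35) and S1pr2 at 7.60 and 3.45 against 7.04 and 9.40 (0.78). Basp1 stood at 42.4 and 26.0 CPM in controls and 18.3 and 15.2 under stress (-0.97, SE 0.29, edgeR adjusted p = 0.585), lower in both, as are 17.4% of all genes tested. Without control 2 the log2 change of Basp1 was -1.34, and without control 1 that of Fas was 0.68. In this fit edgeR called 0 of 10207 genes (percent called 0), with 708 at an unadjusted p below 0.05, while DESeq2 called 13. The test of the difference between B and T cells called 0 of 11388 genes (percent called 0) and, of the 4 genes that passed the filter in T cells, had 1 under an unadjusted p of 0.05 (Basp1, log2 0.98, adjusted p = 0.421). Without cells of 10% or more immunoglobulin UMIs it called 1 of 11105 genes (0.009%) and none of these 4 (Basp1 2.03, adjusted p = 0.0893). The other germinal centre genes entered this test through B cells only and are not counted. Markers of antibody-secreting cells summed to 3759, 277, 4340 and 2301 raw CPM in the T cell sums, and their part in these values was not tested.

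Over all kept cells, which joins the share of B cells to everything above, all 9 genes had positive log2 changes and edgeR called 0 of 13241 genes (percent called 0). Nuggc stood at 12.1 and 9.35 CPM in controls and 31.1 and 27.7 under stress (1.45, SE 0.20, edgeR adjusted p = 0.733), and Mef2b at 15.02 and 10.2 against 29.3 and 26.5 (1.15). DESeq2 called 132 genes (0.997%), with Nuggc (adjusted p = 0.000483), Mef2b and Mybl1 (both 0.0416) among them. Leaving out 1 library gave log2 changes of 1.32 to 1.66 for Nuggc, 0.93 to 1.45 for Mef2b and -0.44 to 0.82 for Basp1.

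Other genes of the germinal centre reaction were read from 9 lists, and in all B cells none of their genes passed. Of 8 genes of hypermutation and repair 6 were positive, with a median log2 change of 0.15, and all 8 in B cells under 10% immunoglobulin UMIs (median 0.32). Hmces, which shields abasic sites, stood at 53.0 ± 11.02 and 62.2 ± 4.87 CPM, and the abasic endonuclease Apex1 at 20.5 ± 1.75 and 17.2 ± 3.30. Of 20 cell cycle genes 19 were positive in all B cells (median 0.67) and 19 in B cells under 10% immunoglobulin UMIs (median 0.95). Mki67 stood in the latter at 74.5 ± 20.2 and 200.2 ± 30.2 CPM (1.45, edgeR adjusted p = 0.0697). Of the same genes 9 of 20 were positive within germinal centre-like cells (median -0.02). The rise was not particular to B cells, since 17 of 18 tested were positive in T cells (median 0.87). In antibody-secreting-like cells 19 of 20 were positive (median 0.51). In germinal centre-like cells Mki67 stood at 566 ± 117 and 741 ± 80.2 CPM (0.38), Top2a at 580 ± 61.0 and 599 ± 46.6, and the tubulin regulator Stmn1 at 1083 ± 119 and 912 ± 63.0.

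Genes of resting and incoming B cells mostly had negative log2 changes. Of 10 resting B cell genes 1 was positive in all B cells (median -0.46). The IgM receptor Fcmr stood at 334 ± 122 and 180.1 ± 17.2 CPM (-0.89, edgeR adjusted p = 0.548), Ighd at 306 ± 127 and 214 ± 11.5, and Klf2 at 425 ± 134 and 412 ± 45.5. Of 8 tested genes of confinement and migration 1 was positive (median -0.35). The homing receptor Ccr7 stood at 353 ± 123 and 144 ± 57.6 CPM (-1.30), Cxcr4 at 164 ± 10.3 and 129 ± 11.95 and Gpr183 at 127 ± 2.30 and 100.1 ± 10.4. Of 9 genes by which B cells receive T cell help 1 was positive (median -0.56). Cd83, a marker of activation, stood at 460.4 ± 2.82 and 277 ± 69.1 CPM (-0.73), Cd86 at 100.1 ± 21.2 and 65.2 ± 20.2, and the BAFF receptor Tnfrsf13c at 116 ± 9.06 and 112 ± 0.0269. In germinal centre-like cells the medians of these 3 lists were 0.10, 0.15 and -0.00. Of 14 transcription factors and partners 5 were positive (median -0.17). Ebf1 stood at 901 ± 221 and 556 ± 7.86 CPM (-0.70), Mef2c at 632 ± 75.5 and 556 ± 10.8, and the octamer coactivator Pou2af1 at 165 ± 12.2 and 166 ± 0.569. In B cells under 10% immunoglobulin UMIs 8 of the 14 transcription factors and partners were positive (median 0.05), as were 4 of the 9 genes of T cell help (median -0.21), 2 of the 10 resting B cell genes (median -0.17) and 1 of the 8 of confinement and migration (median -0.09).

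All 7 genes of exit to plasma cells were positive in all B cells (median 0.69) and 5 in B cells under 10% immunoglobulin UMIs (median 0.29). Jchain stood at 31089 ± 23400 and 46428 ± 7637 CPM, Mzb1 at 955 ± 453 and 1572 ± 61.1 and Xbp1 at 544 ± 382 and 880 ± 242, beside the shares of antibody-secreting-like cells given above. All 6 genes of the Fas pathway, Fas itself among them, were positive (median 0.29). The caspase inhibitor Cflar stood at 36.0 ± 2.64 and 41.1 ± 2.20 CPM and Casp8 at 26.7 ± 1.61 and 28.0 ± 1.70. Of the genes of follicular helper T cells, Bcl6 among them, 10 of 11 tested were positive in all B cells (median 0.50). In T cells 9 of 11 tested were positive (median 0.62). The factor Maf stood at 148 ± 76.1 and 385 ± 23.02 CPM (1.40, edgeR adjusted p = 0.577), Icos at 378 ± 170 and 493 ± 67.8 and Sh2d1a, the adaptor SAP, at 104 ± 1.66 and 139 ± 18.0. The median over all genes tested was -0.01 in B cells under 10% immunoglobulin UMIs and -0.00 in the B cell, T cell and germinal centre-like fits.

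Likeness to the mean log2 CPM of the 9 was measured over 46 points, each a cluster of B cells in 1 library with at least 20 cells. Among the genes that followed it most closely were the linker histone H1fx (Pearson r = 0.947), the lipase Lipc (0.897), Cdkn3 (0.880), the mitotic cyclin Ccnb2 (0.879), Ift22 (0.873), Dap (0.852), Gng12 (0.850), Glrx3 (0.844) and Mapre2 (0.843). Among the 9, r was 0.92 for Gcsam and S1pr2, 0.91 for Gcsam and Rgs13 and 0.90 for both Gcsam with Mybl1 and Nuggc with S1pr2, and it was lowest for Bcl6 with Nuggc (-0.08), Fas (0.02) and Basp1 (0.05). The points share libraries and depth, and these values are a description.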

How the data were processed

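Single-cell RNA-seq was measured in 4 libraries (2 control, 2 stress). The deposited matrices hold raw UMI counts per gene and barcode. Per the submitters' processing notes they were made with Cell Ranger (versions 5 and 5.0 are named) on mm10, while the file headers name software 3.1.0. The annotation and the sex and number of animals are not given in the sources used here. Cells under 500 UMIs or above 10% mitochondrial UMIs were dropped. Doublets were scored with Scrublet at an expected 0.8% per 1000 cells and left out only as an alternative. Total depth was 102976461 UMIs over 20476 kept cells.

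B cells were clustered without the 9 genes (scanpy 1.11.5, 2000 variable genes, 30 principal components, 20 neighbours, Leiden resolution 1, leidenalg 0.10.2). Germinal centre-like clusters were called from a marker gene, also a member of a list, that is not reported here. Its limit and those on Xbp1 and on the markers of mixed clusters were set after seeing the data. UMI counts were summed per library and class and tested in R 4.3.3 by the robust quasi-likelihood test of edgeR 4.0.16 with limma 3.58.1 (TMM scaling, low counts removed by filterByExpr, two-sided, Benjamini-Hochberg adjustment over all genes tested, threshold 0.05). DESeq2 1.42.0 was an alternative. The edgeR fits of B cells, T cells and germinal centre-like cells were also run on simulated counts. Shares were compared with a two-sided exact permutation test (scipy 1.17.1), whose smallest p is 0.333, and have 95% Clopper-Pearson intervals for counting error only. For thinned values cells under 1000 UMIs were left out and each other cell was reduced to 1000 UMIs.

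The 9 genes and the lists were chosen with earlier results of these data known. From each list the text names genes past the test in B or T cells and otherwise the 3 with the highest mean CPM. The antibody-secreting fit and the differences between compartments were added after seeing the data. Alternatives were size factors, no filter on low counts, other cell filters, other resolutions, a replicate block and leaving out each library.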

Additional observations from a re-analysis of the deposited data

Results flagged for a closer look

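The change with stress differed between compartments for Mef2b, Fas and Basp1, in tests of the difference itself that were added after seeing the data. For Mef2b the log2 change in germinal centre-like cells minus that in the other B cells was -1.41 (edgeR adjusted p = 0.000435), and it was -0.91 (adjusted p = 0.570) without control 2. For Fas the same difference was -1.48 (edgeR adjusted p = 0.000533), and it was -1.20 (adjusted p = 0.358) without control 2. For Basp1 the log2 change in antibody-secreting-like cells minus that in germinal centre-like cells was -1.97 (edgeR adjusted p = 2.04e-10), and it passed the test without each library in turn (-2.07 to -1.83).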

How the results depend on the processing

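The share of germinal centre-like cells was higher under stress in every alternative run, and the exact permutation p cannot fall below 0.333. The number of genes past the threshold moved with the tool and the filter. DESeq2 called 38 genes in B cells, 13 in T cells, 132 in all kept cells, 21 in the other B cells and 58 in B cells under 10% immunoglobulin UMIs. With no filter on low counts edgeR called 107 in T cells, 8 in germinal centre-like cells, 216 in the other B cells, 315 in antibody-secreting-like cells and 449 in B cells under 10% immunoglobulin UMIs, and at resolution 2.0 it called 75 in the other B cells. Leaving out cells of 10% or more immunoglobulin UMIs gave 1 call in B cells. Over genes, control 1 minus 2 and stress 1 minus 2 had r = -0.18 in B cells and -0.15 in T cells. The value was 0.015 in B cells under 10% immunoglobulin UMIs and -0.07 in germinal centre-like cells. With 2 pairs these values cannot show if the replicate numbers pair the libraries. The replicate block gave 9 calls in B cells, 7 in germinal centre-like cells, 2 in the other B cells and 3 in B cells under 10% immunoglobulin UMIs. With the numbers crossed the block gave 0 calls in B cells and 129 in T cells. Leaving out 1 library in turn gave 0 to 2104 calls in B cells, 3 to 936 in T cells, 0 to 3017 in all kept cells, 0 to 25 in germinal centre-like cells, 11 to 205 in the other B cells, 111 to 352 in antibody-secreting-like cells and 1 to 1558 in B cells under 10% immunoglobulin UMIs. For differences between classes it gave 0 to 1169 (B minus T), 19 to 108 (germinal centre-like minus other B) and 7 to 152 (antibody-secreting-like minus germinal centre-like), and 5 to 9 genes whose germinal centre share part exceeded the level part.

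Single genes changed sign as follows, and the cause was not tested. Basp1 in B cells was 0.85 without cells of 10% or more immunoglobulin UMIs. In germinal centre-like cells Mef2b was -0.010 with DESeq2 and -0.0074 with its size factors, and S1pr2 was 0.014 with the replicate block and 0.0062 with doublets left out. In antibody-secreting-like cells Mef2b was 0.15 with doublets left out and Rgs13 0.037 with the replicate block. Leaving out 1 library gave ranges across 0 in B cells for Fas (-0.091 to 1.23) and Basp1 (-0.76 to 0.70), in T cells for Bcl6 (-0.032 to 0.28) and Fas (-0.012 to 0.68), in all kept cells for Basp1 (-0.44 to 0.82) and in the other B cells for Basp1 (-0.39 to 1.80). In germinal centre-like cells they were -0.19 to 0.19 for Mef2b, -0.085 to 0.58 for Gcsam, -0.061 to 0.57 for Bcl6, -0.22 to 0.27 for S1pr2, -0.60 to 0.031 for Fas, -0.18 to 0.20 for Rgs13, -0.12 to 0.29 for Mybl1 and -0.095 to 0.26 for Basp1. In antibody-secreting-like cells they were -0.78 to 0.42 for Mef2b, -0.38 to 0.13 for Nuggc, -0.18 to 0.63 for Gcsam, -0.34 to 0.0050 for S1pr2, -0.33 to 0.36 for Fas and -1.02 to 6.38 for Rgs13, which had 0 UMIs in control 2.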
